A study of Mus musculus with 13 samples.

Results

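The comparison described here sets single hypothalamic microglia of mice fed a high-fat diet (HFD) for 1 week beside those of mice fed it for 3 days (3d HFD). Its cells were the wells that the study's table of wells assigns to HFD of 7 days or 3 days on plates 4, 5 and 13, the plates that carry both lengths, and no control cells entered. Of the 324 such wells, 194 held at least 1500 transcripts and were kept, out of 1617 wells kept among the 2496 wells of the series. The kept cells were 73 of 1-week HFD and 121 of 3d HFD.

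The study asked how microglia respond to the first days of high-fat feeding, and it sequenced single microglia by CEL-Seq2, a plate method that counts the 3′ ends of transcripts with a random tag (UMI) on each molecule. All mice behind these wells were male C57BL/6J without a modified gene, every well was of an HFD mouse, and the names of all wells of both lengths carry an age of 14 weeks. The cells were sorted as CD45lo CD11b+, a gate that other myeloid cells of low CD45 can enter. The sample labels call the tissue brain and name only the 3-day diet, so the 1-week length rests on the table of wells, and none of the 1-week wells was among those that the authors marked as analysed, whereas all 121 kept 3d wells were.

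Microglia are the resident macrophages of the brain. In the resting state they carry a set of identity genes such as P2ry12, Tmem119 and Cx3cr1, they clear debris through lysosomes, and on stimulation they can raise inflammatory, antigen-presenting and lipid-handling genes. In the hypothalamus, which senses nutrients and controls feeding, dietary fat is among the signals they are known to respond to.

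The 3d HFD cells carried the replicate identifiers M17 and M18 (20 cells each, plate 13), M24 (40 cells) and M25 (41 cells, both on plates 4 and 5). The 1-week cells were M13 (12 cells) and M14 (4 cells) on plate 13 and M22 (26 cells) and M23 (31 cells) on plates 4 and 5. M14 fell below the minimum of 5 cells and entered no main comparison, which left 4 sums of cells for 3d HFD and 3 for 1-week HFD. The sums held between 30929 transcripts in M13 and 180185 in M23, so that plate 13 gave the shallowest 1-week value. Scaled to the genes tested and adjusted by TMM, 1 transcript was worth 44.5 CPM (counts scaled to a total of 1000000) in M13 but 7.53 in M23. The share of wells that passed the minimum was 83.3% in M17 and in M18, 66.7% in M13 and 22.2% in M14, and it lay between 54.2% and 64.6% on plates 4 and 5. Nothing in the labels says that an identifier is 1 mouse, so the p-values measure the spread between these sums of cells. Every plate used the same 192 well barcodes, so a barcode was a cell only together with its plate.

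Cells of both lengths expressed the microglial identity genes at high and similar levels. Here CPM is scaled to the transcripts of the genes tested and adjusted by TMM. P2ry12, the purinergic receptor of resting microglia, stood at 4406 CPM in M17, 4419 in M18, 5223 in M24 and 5068 in M25 of 3d HFD, and at 5111 in M13, 5571 in M22 and 4839 in M23 of 1-week HFD. Its values overlapped, with a log2 fold change of 0.09 (95% interval -0.20 to 0.38). Tmem119, a microglial surface protein, ranged from 2305 to 3612 CPM in 3d HFD and from 2506 to 2756 CPM in 1-week HFD (log2 fold change -0.03, interval -0.36 to 0.30). By these markers the label of microglia held for the sums of both lengths. Single cells that stood apart are described with the class II genes.

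No gene passed the test between the lengths. Of 2361 genes with enough transcripts, 0 had an adjusted p under 0.05 (edgeR quasi-likelihood test with the plate set as block, Benjamini-Hochberg), a share of 0.0%, and the smallest adjusted p was 0.993. An unadjusted p under 0.05 was found for 83 genes, or 3.52% of those tested. DESeq2 called 0 genes with 22 at an unadjusted p under 0.05, and limma-voom called 0 with 130. The fold changes were centred, with a median log2 fold change of -0.00097, and 1177 genes were above 0 and 1184 below it. The 95% interval of a gene reached a median of 0.70 on the log2 scale to either side (unadjusted interval).

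The genes with the smallest p in each direction were examined as a description, since none of them was called. Among the 10 with higher values in 1-week HFD were mt-Co1, Hk2, Pnpla7 and Nek7. mt-Co1 (chrM:5328-6872 in GRCm38), which encodes a catalytic subunit of cytochrome c oxidase, stood at 1606 CPM in M17, 1891 in M18, 1557 in M24 and 1640 in M25. It stood at 2533 CPM in M13, 2105 in M22 and 2182 in M23. Every 1-week value lay above every 3d value, with a log2 fold change of 0.46 ± 0.17 (SE) and an adjusted p of 0.993.

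Hk2 encodes a hexokinase that traps glucose in the cell for glycolysis. Its level was 224 CPM in M17, 106 in M18, 315 in M24 and 280 in M25, against 489 in M13, 539 in M22 and 331 in M23. The 1-week values again lay above all 3d values, the nearest pair being M23 and M24 (log2 fold change 0.69 ± 0.27, adjusted p = 0.993 in edgeR). Pnpla7, a lysophospholipase, was at 243, 234, 196 and 223 CPM in M17, M18, M24 and M25 and at 622, 257 and 376 CPM in M13, M22 and M23 (log2 fold change 0.84 ± 0.27). Its 1-week values were all higher, M13 by far the most. Nek7, a kinase that binds the NLRP3 inflammasome, was at 261, 255, 213 and 214 CPM in 3d HFD in the same order and at 622, 295 and 346 CPM in 1-week HFD (log2 fold change 0.78 ± 0.26). The groups did not overlap for Nek7 either.

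Ddx3x, an X-linked RNA helicase that acts in translation initiation, had the smallest p of the genes above 0. It stood at 6553 CPM in M17, 6013 in M18, 10290 in M24 and 10200 in M25 of 3d HFD. In 1-week HFD it was at 13470 CPM in M13, 13580 in M22 and 8534 in M23. M23 lay below both 3d sums of its own plates, and the log2 fold change was 0.50 ± 0.16. The others of the 10 were Zmynd11, a reader of histone methylation, Tmem55b, a lysosomal membrane phosphatase, Cgnl1, a junction protein, Tbl1xr1, a part of corepressor complexes, and Ubr2, a ubiquitin ligase, with log2 fold changes between 0.56 and 0.94.

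Among the 10 genes with lower values in 1-week HFD the smallest p belonged to Stab1 (chr14:31139013-31168641 in GRCm38), a scavenger receptor of macrophages. Stab1 was at 653 CPM in M17, 574 in M18, 646 in M24 and 494 in M25 of 3d HFD. It was at 311 CPM in M13, 321 in M22 and 399 in M23 of 1-week HFD. All 1-week values lay below all 3d values, with a log2 fold change of -0.71 ± 0.23 (interval -1.17 to -0.25, adjusted p = 0.993 in edgeR).

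Crk, an adaptor of integrin and growth factor signalling, was at 205, 255, 196 and 190 CPM in M17, M18, M24 and M25 and at 44.5, 77.0 and 97.8 CPM in M13, M22 and M23 (log2 fold change -1.24 ± 0.41). The groups did not overlap, but the M13 value was that of 1 transcript. A830008E24Rik was at 261, 234, 323 and 330 CPM in 3d HFD and at 178, 167 and 166 CPM in 1-week HFD (log2 fold change -0.89 ± 0.30). Here too every 1-week value was below every 3d value. The remaining members were Plod3, a collagen lysyl hydroxylase, Zc3h13, a part of the RNA methylation complex, Trafd1, a brake on innate immune signalling, 9930021J03Rik, Zfc3h1, an RNA exosome adaptor, Ndufb5, a subunit of respiratory complex I, and Lcorl, a nuclear corepressor-like protein, with log2 fold changes between -1.62 and -1.01. In M13, Zc3h13, 9930021J03Rik, Zfc3h1 and Lcorl also stood at 1 transcript (44.5 CPM), and Trafd1 at 0.

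In 8 of the 10 genes above 0 and in 8 of the 10 below 0, the 1-week sums lay apart from the 3d sums of their own plates in both plate sets. Since the genes were chosen by p over both sets, that separation was partly fixed by the choice. Among all genes tested, 142 were higher in both sets in this way, 6.01% of them, and 140 were lower, 5.93%, so the directions were even. These include the genes whose 1-week sums all lay above or all below every 3d sum, as given for single genes. The share of that stricter case among all genes was not counted.

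**Figure D1:**
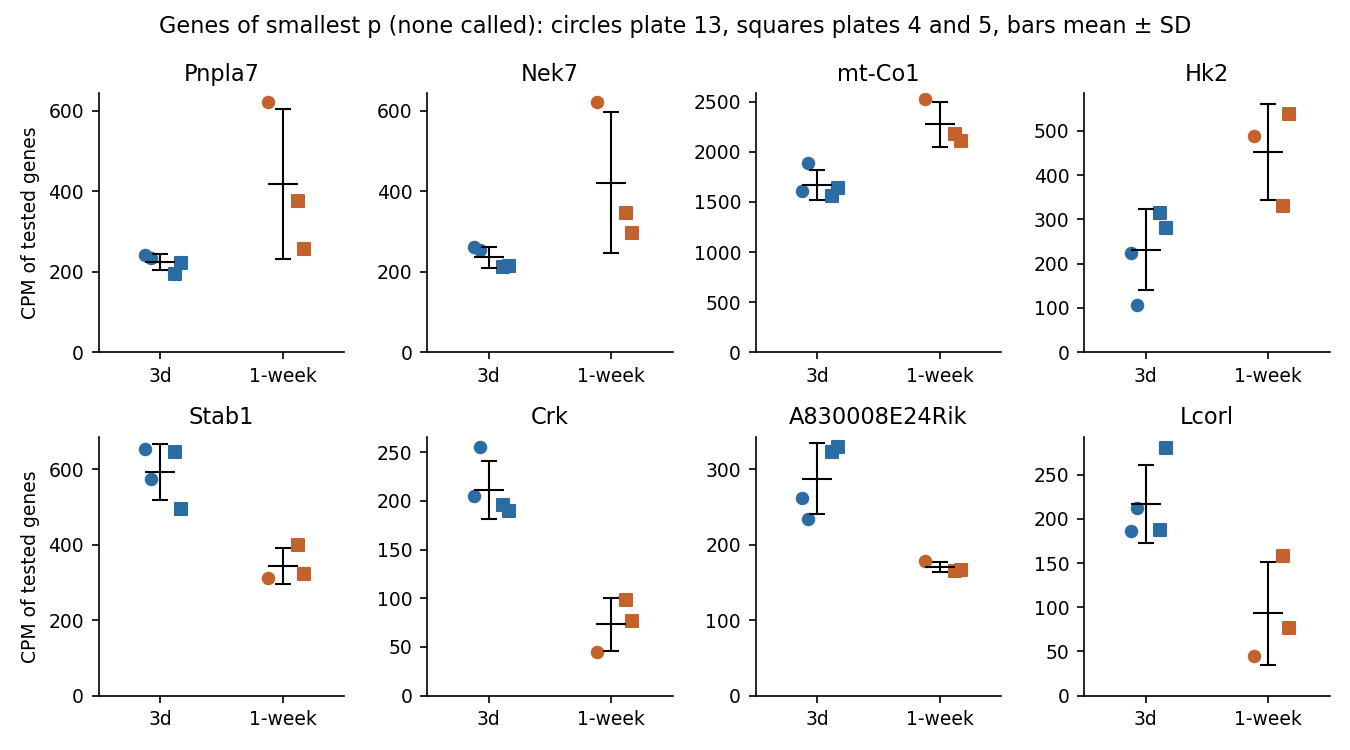
CPM (of the tested genes, linear axis from 0) in each sum of cells for 8 genes of small p, with 3d HFD (4 sums) in blue and 1-week HFD (3 sums) in orange, circles for plate 13, squares for plates 4 and 5 and bars for the mean ± SD. In each panel the 1-week sums lie apart from the 3d sums of their own plates, and none of the 8 genes passed the test (smallest adjusted p 0.993). Genes of smallest p whose sums overlapped, such as Ddx3x, are not shown, so the separation comes with the choice of panels. Of all genes tested, 6.01% were higher and 5.93% lower in this way. For Crk and Lcorl the M13 value is that of 1 transcript.

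The plate sets were then compared, since they share no cells and each holds both lengths. On plates 4 and 5, with 2 sums a length, 0 of 3514 genes were called (0.0%, edgeR), with 129 at an unadjusted p under 0.05. On plate 13, where the 1-week side was M13 alone and the spread came from M17 and M18, 11 of 1704 genes were called (0.646%), 8 higher and 3 lower in 1-week HFD. That fit assumes that M13, a sum of 12 cells, varies as M17 and M18 do, and it holds no spread between 1-week replicates, so its calls set M13 apart from M17 and M18 and are no test of the diet length. Of 1622 genes fitted in both sets, 798 had log2 fold changes of the same sign. The interaction of length with plate set called 4 of 2361 genes (edgeR, 0.169%), namely Gm42418, Apoe, Capn3 and H2-Aa, and DESeq2 called 1 of them, Gm42418. Its plate 13 side again rests on M13 alone, with the spread taken from the other groups, and with M14 added only Gm42418 was called (adjusted p = 0.000696, edgeR).

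Gm42418 (chr17:39846958-39848788 in GRCm38) is a predicted gene that overlaps ribosomal RNA sequence, so its reads may come from rRNA copies. It was at 3846 CPM in M17 and 2613 in M18 against 13200 in M13 on plate 13. On plates 4 and 5 it was at 17690 in M24 and 12450 in M25 against 9345 in M22 and 11790 in M23. The 1-week value was thus higher on plate 13 and lower on plates 4 and 5, with log2 fold changes of 1.98 and -0.51 in the separate fits of the plate sets. The interaction fit, a fit of all sums together, put the difference at -2.54 ± 0.28. In M13, 120 of its 295 UMIs of this gene lay in 1 cell, and M14, the other 1-week identifier of plate 13, held 33 in its 4 cells. Scaled to all transcripts, Gm42418 was at 6558 CPM in M13 and at 2423 in M14, against 2099 in M17 and 1499 in M18, so that M14 lay closer to the 3d sums than to M13.

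Capn3, a calpain protease, was at 355 CPM in M17 and 425 in M18 and at 0 in M13. On plates 4 and 5 it was at 255 in M24 and 305 in M25 against 475 in M22 and 354 in M23, where both 1-week values were higher. With a count of 0 in M13 taken as up to 3 transcripts, Capn3 was at least 2.92-fold lower in M13 than in the 3d sums of plate 13. In M14, however, 3 of the 4 cells held 5 Capn3 UMIs in all.

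Apoe, a carrier of cholesterol and other lipids between cells, was at 280 CPM in M17 and 85.0 in M18 and at 1378 in M13. On plates 4 and 5 it was at 3998 in M24, 3766 in M25, 2670 in M22 and 5072 in M23, so that the lengths overlapped there and the plate sets stood further apart than the lengths. A single cell of M13 held 26 of its 31 Apoe UMIs. That cell was also the one with nearly all MHC class II transcripts of M13, described next. Ccl3, a chemokine, was likewise held by 1 cell, which had all 21 of M13's UMIs of this gene and all 11 of Ccl4.

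**Figure D2:**
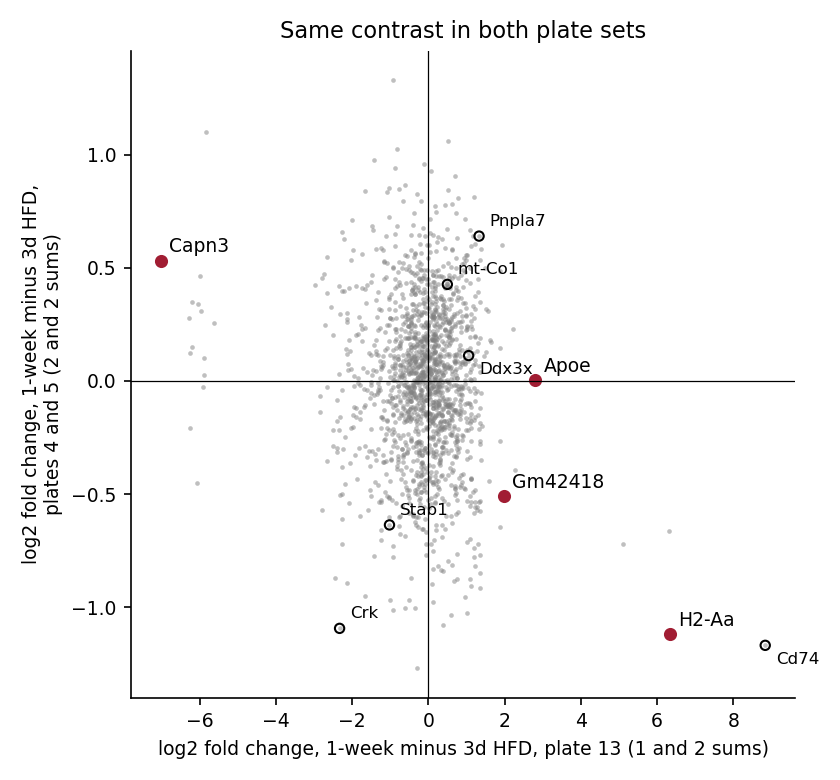
log2 fold change of 1-week minus 3d HFD on plate 13 (horizontal axis, 1 sum against 2) and on plates 4 and 5 (vertical axis, 2 sums against 2) for the 1622 genes fitted in both, 1 point a gene, with the 4 genes of the interaction test in red and 6 others circled. The cloud has no shared direction, with 798 genes of the same sign, and the points near -6 on the horizontal axis are genes with no transcript in M13, whose fitted values depend on the prior count.

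MHC class II molecules present peptides to CD4+ T cells, with H2-Aa, H2-Ab1 and H2-Eb1 encoding their chains, Cd74 the invariant chain that guides them, H2-DMa and H2-DMb1 the peptide exchanger and Ciita the regulator that switches them on. Class II promoters are known for a shared upstream module that ends in a Y box, an inverted CCAAT element. The promoters of H2-Aa, H2-Eb1 and H2-DMb1 are shown as class II promoters that hold the core letters of this Y box. Each is the 120 bases before the RefSeq start site in GRCm38.p6 (H2-Aa chr17:34287824-34287943, minus strand; H2-Eb1 chr17:34305747-34305866, plus strand; H2-DMb1 chr17:34153071-34153190, plus strand), read 5′ to 3′, with the letters TGATTGG in capitals.
H2-Aa: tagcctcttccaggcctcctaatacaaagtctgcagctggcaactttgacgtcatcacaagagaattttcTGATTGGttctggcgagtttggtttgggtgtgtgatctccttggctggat
H2-Eb1: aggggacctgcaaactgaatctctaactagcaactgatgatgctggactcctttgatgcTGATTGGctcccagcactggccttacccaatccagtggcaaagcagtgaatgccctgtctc
H2-DMb1: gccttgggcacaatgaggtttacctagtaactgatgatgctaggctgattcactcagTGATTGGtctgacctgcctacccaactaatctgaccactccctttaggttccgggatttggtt
The letters TGATTGG began 50, 61 and 63 bases before the start in H2-Aa, H2-Eb1 and H2-DMb1. Of 32851 RefSeq promoters, each from 250 bases before to 50 after the start, 4.01% held them on the coding strand and 7.82% on either strand. Neither of the 2 RefSeq windows of H2-DMa held them on either strand.

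Across the sums, class II levels were high in single identifiers of both lengths. H2-Aa was at 37.3 CPM in M17, 0 in M18, 3114 in M24 and 115 in M25 of 3d HFD, and at 1911 in M13, 77.0 in M22 and 1317 in M23 of 1-week HFD. Cd74 was at 0 in M17 and M18, 4339 in M24 and 65.9 in M25, and at 1422 in M13, 25.7 in M22 and 1829 in M23. In both genes M24, M13 and M23 were high, the other 4 sums were low, and the lengths overlapped (H2-Aa log2 fold change 0.40 ± 0.75, Cd74 0.12 ± 0.82, each with an adjusted p of 1.00 in edgeR). Without M24, whose class II level was the highest, H2-Eb1 and H2-Ab1 were called as higher in 1-week HFD (log2 fold changes 2.99 and 2.62, adjusted p = 0.00921, edgeR), 2 of 1733 genes or 0.115%.

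Counted by cell, 5 or more UMIs summed over Cd74 and the chain genes H2-Eb1, H2-Ab1 and H2-Aa were found in 10 of 40 cells of M24 (25%, exact 95% interval 12.7 to 41.2%) and in 12 of 31 cells of M23 (38.7%, 21.9 to 57.8%). They were found in 2 of 41 cells of M25, 1 of 12 of M13 and 0 of 26 of M22, which allows a share of up to 11.5%. M17 and M18 had 0 of 20 cells each, which allows up to 15.0%. By length this came to 12 of 121 cells of 3d HFD and 13 of 73 of 1-week HFD, with the high identifiers on both sides.

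The counts per cell left a gap between 31 and 78 UMIs, and 9 cells lay above it. Of these, 6 were in M24, 2 in M23 and 1 in M13, so that with at least 50 UMIs the order by length turned, to 6 of 121 cells (4.96%) for 3d HFD and 3 of 73 (4.11%) for 1-week HFD. With replicates of at least 5 cells weighted equally, which leaves out M14, the 1-week minus 3d difference at 50 UMIs was -4.27 points on plates 4 and 5 and 8.33 points on plate 13, where it was 1 cell of M13, and at 5 UMIs it was 4.42 and 8.33 points. With M14, which had 0 of 4 cells, the plate 13 difference was 4.17 points at either minimum. When each cell was thinned to 1500 UMIs, at least 5 class II UMIs remained in 7 cells of M24, 4 of M23, 1 of M13 and 0 of the other replicates. On plates 4 and 5 this was 17.5% of M24 and 0% of M25, against 0% of M22 and 12.9% of M23. The mean 1-week share there was then the lower, while without thinning it was the higher at 5 UMIs. The 16 cells with 5 to 49 UMIs held a median of 6563 transcripts, against 3563 in the cells with fewer than 5, so depth moved with this class, and its part in the counts was not tested.

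Most of the 9 cells with the most class II transcripts also held transcripts of other myeloid markers. Ccr2, the chemokine receptor of monocytes, had 152 of its 158 UMIs in 6 of these 9 cells, and Ciita had 16 of 18. Lyz2, a lysozyme of myeloid cells, reached 10920 CPM of all transcripts there and 244 CPM in the cells with fewer than 5 class II UMIs. Of its 550 UMIs in the 9 cells, 312 were in 1 cell of M24, and the other 8 cells were at 5989 CPM. P2ry12 stood at 675 against 2940 CPM in the same cells, and Sall1, a transcription factor of microglial identity, had 1 UMI in them. The 9 cells were not alike. P2ry12, Tmem119 and Cx3cr1 together made up 0.056% to 0.605% of all UMIs in 8 of them, 6 of which lay below the 5th percentile (0.335%) of the 169 cells with fewer than 5 class II UMIs. In the ninth, a cell of M24 with 78 class II UMIs, they made up 1.00%, above the median of 0.886% of those 169 cells, and that cell held 10 UMIs of P2ry12 and 0 of Ccr2 and of Lyz2. Ly6c2, Ccr7 and Cd209a, markers of monocytes and dendritic cells, had no UMI in any of the 194 cells. Mrc1 and Ms4a7, markers of border-associated macrophages, had 25 UMIs in 7 of the 9 cells and 11 UMIs in 4 of them. They stood at 496 and 218 CPM there, against 11.5 and 4.6 CPM in the cells with fewer than 5 class II UMIs. Flt3 and Zbtb46, markers of dendritic cells, had 1 UMI each in the 9 cells. The part of these cells in the results by length was not tested beyond leaving them out: without the 9 cells, edgeR again called 0 genes between the lengths, with 105 at an unadjusted p under 0.05.

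**Figure D3:**
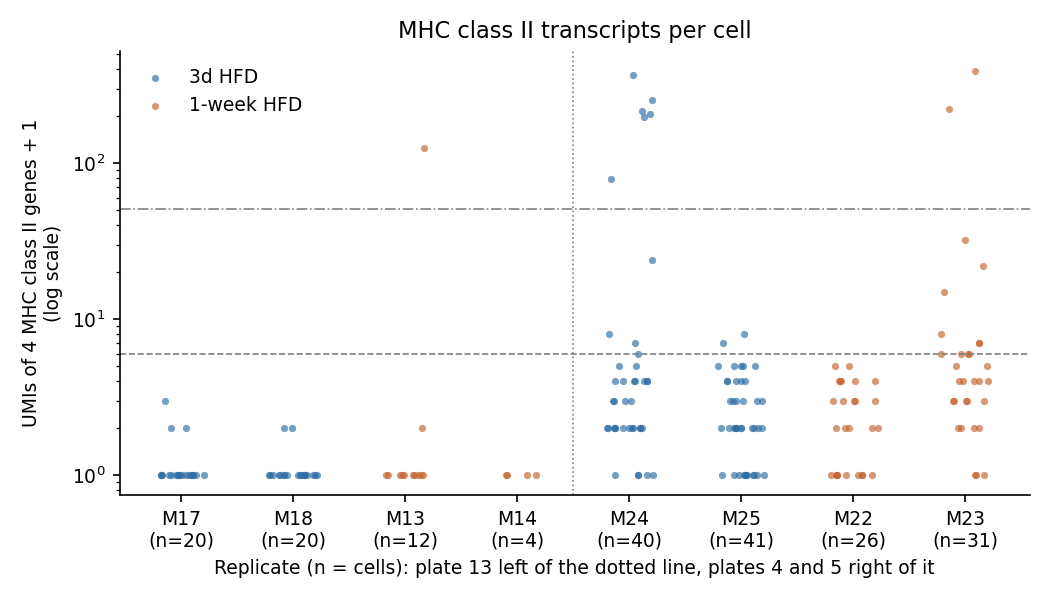
UMIs of the 4 MHC class II genes plus 1 in each of the 194 cells (log axis) by replicate, 3d HFD in blue and 1-week HFD in orange, with dashed lines at 5 and 50 UMIs. The 9 cells above the upper line are in M24 (6), M23 (2) and M13 (1), and M17, M18, M14, M25 and M22 have none.

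The gene groups were described next by their counts and medians beside those of all genes tested. Over the lists, 590 genes were included, of which 254 had enough transcripts to be tested and 0 were called, beside 0.0% of all genes. Of 22 lists with at least 5 tested members, ribosomal protein genes and mitochondrial genome transcripts apart, 18 had medians of opposite sign on plates 4 and 5 and on plate 13, 16 of them above 0 on plates 4 and 5, so for these 18 the plate sets shared no direction. Homeostatic microglial genes were all tested, 9 of 18 above 0 and 9 below it, with a median log2 fold change of 0.00 (0.07 on plates 4 and 5 and -0.15 on plate 13). The lowest of them was Siglech at -0.34, and its fitted log2 difference of M13 from M17 and M18 was -0.84. Csf1r, the receptor that keeps microglia alive, ranged from 7750 to 9370 CPM in 3d HFD and from 9023 to 10120 CPM in 1-week HFD (log2 fold change 0.15, interval -0.12 to 0.43). Cst3, a secreted inhibitor of cathepsins and the most abundant member, ranged from 36460 to 47850 CPM in 3d HFD and from 38300 to 41380 CPM in 1-week HFD. Both overlapped between the lengths. Microglial transcription factors had 8 of 12 tested members above 0 (median 0.12), with Mef2c, a factor of myeloid and neuronal genes, at -0.30 ± 0.20.

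Most inflammatory mediators had few transcripts. Of 16 cytokines and chemokines, only Ccl12 had enough transcripts to be tested, and its log2 fold change was 0.04 ± 0.44. On library totals, Tnf was at 6.09 CPM in M24, at 18.2 CPM in M22 and at 0 in the other sums, and Il10 was at 0 in all 7 sums. For such genes no difference was detectable at this depth. The summed level of the list was 1294 CPM of library totals in M13 and 203 to 525 CPM in the other sums. In M13 the chemokines Ccl3 and Ccl4 were at 679 and 356 CPM, all from 1 cell, while M14 held 1 UMI of Ccl3 and 0 of Ccl4. Of the tested members, 4 of 6 NF-kB pathway genes were above 0 (median 0.27), as were 4 of 5 Toll-like receptor genes (median 0.07) and 6 of 7 inflammasome and nitric oxide genes (median 0.38, the highest of the lists with at least 5 tested members). Within the last, Ncf1, a subunit of the phagocyte oxidase, was at 952, 1020, 391 and 750 CPM in M17, M18, M24 and M25 and at 1511, 822 and 707 CPM in M13, M22 and M23. Its lengths overlapped on plates 4 and 5 (log2 fold change 0.48 ± 0.22, adjusted p = 0.993 in edgeR). Immediate early genes, which respond to cell handling as well as to stimuli, had 4 of 6 tested members above 0 (median 0.14), and Zfp36, which destabilises cytokine mRNA, was at 0.84 ± 0.35.

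Class I and complement genes were counted next. All 4 tested class I genes were below it (median -0.19), among them B2m, the light chain of class I, which ranged from 4260 to 4704 CPM in 3d HFD and from 3689 to 4133 CPM in 1-week HFD. Its ranges did not overlap, yet its interval of -0.49 to 0.11 included 0. Complement genes had 6 of 7 below 0 (median -0.06, 0.04 on plates 4 and 5 and -0.23 on plate 13), and the chains C1qa, C1qb and C1qc of the initiating complex were at -0.18, -0.02 and -0.05. Interferon response genes had 3 tested members of 20, 1 above 0 and 2 below it.

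The energy metabolism lists did not share a direction. All 8 tested transcripts of the mitochondrial genome were above 0, with a median of 0.21 and a range of 0.10 to 0.46, and this also held without M23, the replicate with the highest mitochondrial share (8 of 8, median 0.23), and with library totals in place of TMM (8 of 8, median 0.19). Both scalings leave out genes absent from the filtered table. As a share of all transcripts, M22 was at 1.94%, below M24 at 2.06% and M25 at 1.96%. Without M23 the difference in that share was 0.0490 points, against 0.192 with it, so the direction on plates 4 and 5 depends on the scaling. mt-Cytb, a subunit of complex III, was at 4723, 4589, 2841 and 3131 CPM in M17, M18, M24 and M25 and at 6311, 3851 and 3477 CPM in M13, M22 and M23. It was higher in 1-week HFD within each plate set (log2 fold change 0.35 ± 0.15, adjusted p = 0.993 in edgeR). These transcripts come from 1 polycistronic genome and are not independent of each other.

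The nuclear-encoded respiratory chain genes were split, 13 of 26 above 0 and 13 below it (median -0.01), with Atp5a1, the ATP synthase alpha subunit, at -0.46 ± 0.29. Glycolysis genes had 4 of 10 above 0 (median -0.03) with Hk2 the highest, Gapdh at 0.33 ± 0.24 and Pkm at -0.37 ± 0.30. Tricarboxylic acid cycle and anaplerosis genes had 6 of 10 above 0 (median 0.02). Only Crat, a carnitine acyltransferase, was tested among 34 genes of fatty acid uptake and oxidation, at 0.24 ± 0.47. Mitochondrial dynamics and uncoupling genes had 5 of 6 above 0 (median 0.27), including Ucp2, an inner-membrane carrier, at 0.18 ± 0.23.

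Lipid storage and cholesterol genes had 7 of 9 tested members above 0 (median 0.16). Abca1, the exporter of cholesterol to lipoproteins, was at 392, 255, 306 and 354 CPM in M17, M18, M24 and M25 and at 489, 603 and 339 CPM in M13, M22 and M23. M23 lay between the 3d values of its plates (log2 fold change 0.47 ± 0.24). Disease-associated microglial genes had 6 of 9 tested members above 0 (median 0.06), with the cathepsins Ctsd at -0.11 ± 0.15 and Ctsb at 0.05 ± 0.17. Lysosomal genes were balanced, 15 of 28 above 0 (median 0.04).

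Cytosolic ribosomal protein genes had 47 of 72 below 0, with a median of only -0.07 and a range of -0.49 to 0.47. Translation initiation and elongation genes had 12 of 23 below 0 (median -0.01), chaperone and heat shock genes 9 of 14 (median -0.14), stress response genes 3 of 4 (median -0.18) and antioxidant and hypoxia genes 7 of 9 (median -0.08). The last 3 medians were 0.05, 0.12 and 0.13 on plates 4 and 5 and -0.49, -0.98 and -0.95 on plate 13, where 1-week HFD was M13 alone. Calr, a chaperone of the endoplasmic reticulum, was at 1288 CPM in M17 and 1424 in M18 against 356 in M13, and on plates 4 and 5 at 766 in M24 and 733 in M25 against 745 in M22 and 730 in M23. The fitted log2 difference of M13 from M17 and M18 was -1.96, while on plates 4 and 5 the lengths differed by -0.02. Scaled to all transcripts, M13 was at 178 CPM with 8 UMIs of Calr and M14, left out of the fits, at 514 CPM with 7 UMIs in 4 cells, against 703 in M17 and 816 in M18. Proteasome subunits (7 of 12 above 0, median 0.05), actin and motility genes (13 of 26, median 0.00) and TGF-beta signalling genes (5 of 8, median 0.06) were centred. No gene of the proliferation list had enough transcripts to be tested.

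**Figure D4:**
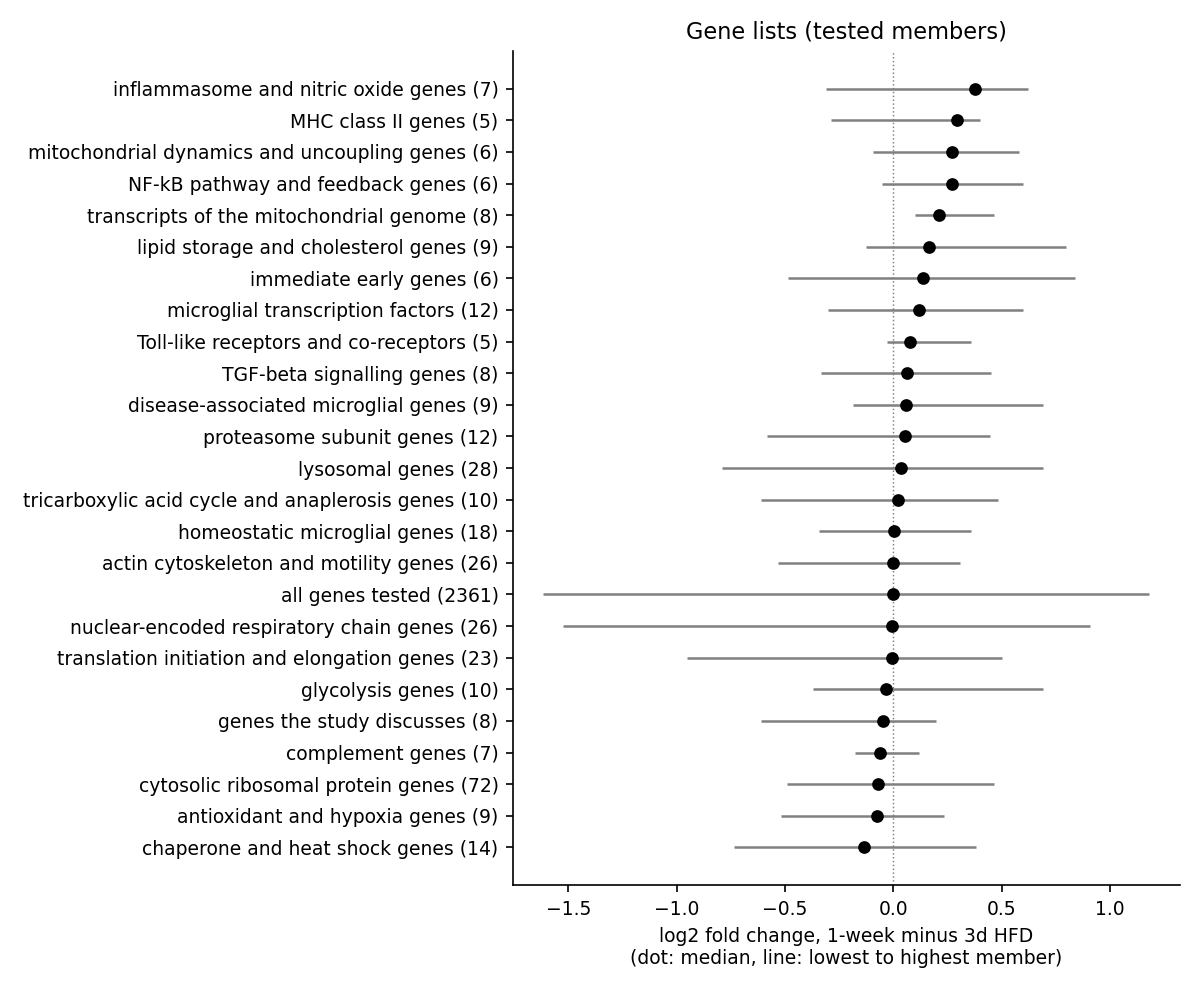
log2 fold change of 1-week minus 3d HFD for the gene lists with at least 5 tested members (number of tested members in brackets), as the median (dot) and the lowest to highest member (line), with all 2361 genes tested for reference. The medians lie between -0.14 and 0.38, and no member of any list was called.

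The genes that the study discusses were followed one by one where they could be. Sdha, the catalytic subunit of respiratory complex II, was at 187 CPM in M17, 149 in M18, 213 in M24 and 173 in M25 and at 44.5 in M13, 244 in M22 and 67.7 in M23. The 1-week values lay on both sides of the 3d values (log2 fold change -0.61 ± 0.43), and the M13 value was that of 1 transcript. Aif1, the actin-binding protein IBA1 used to stain microglia, ranged from 604 to 824 CPM in 3d HFD and from 445 to 680 CPM in 1-week HFD (-0.36 ± 0.22). Itgam, the CD11b of the sort, was at -0.10 ± 0.19, Ptprc, the CD45 of the sort, at 0.19 ± 0.20 and Cx3cr1, the fractalkine receptor, at -0.07 ± 0.15. For none of these genes did the test separate the lengths. Dnm1l, the gene of the fission protein DRP1, was too low to be tested and lay between 31.8 and 54.2 CPM of library totals in 3d HFD and between 50.0 and 64.7 CPM in 1-week HFD. In the shallower sums such levels are a few transcripts, so no difference was read from these ranges. Tomm20, Cpt1a, Cpt2, Tnf, Il6 and Il1b were also too low, and Acod1 was not among the genes used here.

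The transcript content of cells was compared over replicates with exact permutation tests within the plate sets, which allow 18 assignments and a smallest two-sided p of 0.0556, so that none could pass 0.05. A cell held a median of 3618 transcripts in M17, 3227 in M18, 3553 in M24 and 3962 in M25 of 3d HFD, and 2635 in M13, 4357 in M22 and 4914 in M23 of 1-week HFD. The 1-week value was the lowest on plate 13, and both 1-week values were the highest on plates 4 and 5. The mean difference over the plate sets was 45.3 transcripts (exact permutation p = 0.944, adjusted over the 5 measures 1.0).

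With each cell thinned to 1000 UMIs, the genes per cell were 713 in M17, 711 in M18, 682 in M24 and 687 in M25, and 696 in M13, 701 in M22 and 683 in M23. The difference was -4.38 genes (exact permutation p = 0.611), and the lengths overlapped on plates 4 and 5. The distance between cells of a replicate, 1 minus their correlation over variable genes, was between 0.627 and 0.658 in 3d HFD and between 0.628 and 0.646 in 1-week HFD (difference 0.0004, exact permutation p = 1.0). Cells of the lengths were therefore not shown to differ in how alike they were.

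The share of transcripts from the mitochondrial genome was 1.99% in M17, 1.78% in M18, 2.06% in M24 and 1.96% in M25, and 2.06% in M13, 1.94% in M22 and 2.51% in M23. M23 was the highest and M22 lay below both 3d values of its plates (difference 0.192 percentage points, exact permutation p = 0.389). Genes that the authors' filtered table leaves out took 26.2% of transcripts in M17, 24.3% in M18, 29.3% in M24 and 28.3% in M25, and 32.9% in M13, 32.9% in M22 and 22.4% in M23. M13 and M22 were the highest and M23 the lowest of all (difference 3.23 points, exact permutation p = 0.444). M23 thus stood apart from M22, the 1-week replicate of the same plates, in depth, in class II transcripts and in both shares.

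Without M23, Ddx3x was called as higher in 1-week HFD (log2 fold change 0.75 ± 0.13, adjusted p = 0.00252, edgeR), with the predicted genes Gm21738 (0.54) and Gm10717 (0.54), 3 of 2135 genes or 0.141%. The fitted log2 difference of M13 from M17 and M18 was 1.05 for Ddx3x, while on plates 4 and 5 its log2 fold change was 0.11. Scaled to all transcripts, Ddx3x was at 6691 CPM in M13, 3566 in M17 and 3436 in M18, and in M14 at 4259 CPM with 58 UMIs in 4 cells. The 3 cells with the most Ddx3x held 203 of 301 UMIs in M13 (12 cells), 500 of 1043 in M22 (26 cells), 448 of 1122 in M23 (31 cells) and 55 of 58 in M14, against 123 of 350 in M17 and 77 of 282 in M18 (20 cells each), 378 of 1199 in M24 (40 cells) and 356 of 1228 in M25 (41 cells). These predicted genes have near-identical copies in the genome, so their counts are uncertain. Gm21738 was at 39470 CPM in M17, 34020 in M18, 52060 in M24 and 46630 in M25, and at 53910 in M13, 71140 in M22 and 26990 in M23, so that the 1-week replicates held both the highest and the lowest value. In M22, 1 cell held 1624 of its 4917 UMIs of this gene.

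**Figure D5:**
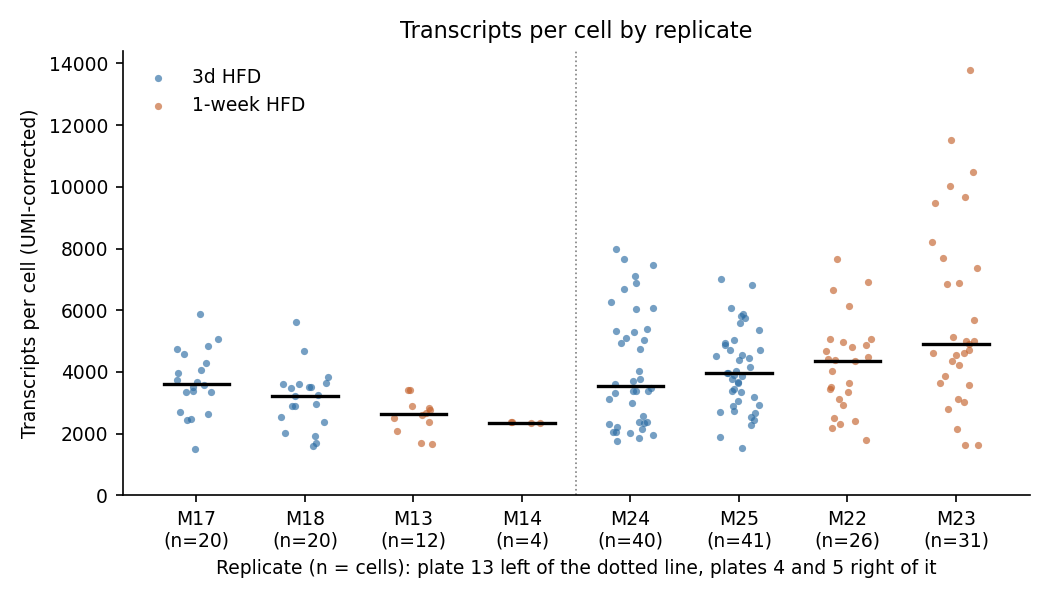
Transcripts per kept cell (linear axis from 0) by replicate, with 3d HFD in blue, 1-week HFD in orange, 1 point a cell and a bar at the median, plate 13 to the left and plates 4 and 5 to the right. The 1-week medians are the lowest on plate 13 (2635 in M13 and 2359 in M14) and the highest on plates 4 and 5 (4357 in M22 and 4914 in M23).

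Markers of other cell types were counted as cells with at least 3 UMIs of a list. No cell of the 121 of 3d HFD (which allows a share of up to 2.48%) or of the 73 of 1-week HFD (up to 4.11%) passed for astrocytes, ependymal cells or erythroid cells. Neuronal markers passed in 6 cells of 3d HFD (4.96%) and 4 of 1-week HFD (5.48%), and those of border-associated macrophages in 4 (3.31%) and 4 (5.48%). Dendritic cell markers passed in 5 (4.13%) and 7 (9.59%) and neutrophil markers in 3 (2.48%) and 2 (2.74%). Oligodendrocyte, lymphocyte and monocyte markers passed in 67, 36 and 27 cells of 3d HFD (55.4, 29.8 and 22.3%) and in 46, 28 and 20 cells of 1-week HFD (63.0, 38.4 and 27.4%), and endothelial and mural markers in 1 and 0. Lists narrowed after the values were seen were also counted. Trf, Ighm and Lyz2, which many of these cells held, were left out of the oligodendrocyte, lymphocyte and monocyte lists, which then passed in 7, 0 and 4 cells of 3d HFD and in 4, 0 and 4 cells of 1-week HFD.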

How the data were processed

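Single microglia of C57BL/6J mice were sequenced by the authors with CEL-Seq2 on 13 plates of 192 wells. Per the labels and methods, reads were mapped to mm10 with STAR and counted on genes with featureCounts. The deposited values are estimated counts of transcripts per gene and well, that is UMIs corrected for chance repeats, with no normalization. All values were converted back to whole UMIs (100% within 0.001). Diets and replicates came from the authors' table of wells. The authors' filtered table gave the list of 17280 genes. The number of columns of per-sample values not used was 0.

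Wells with at least 1500 transcripts over those genes were kept. Estimated counts were summed per replicate and plate set (minimum 5 cells), rounded to whole numbers and tested with edgeR 4.0.16 (TMM, filterByExpr, quasi-likelihood, plate set as block) in R 4.3.3, at an adjusted p of 0.05. DESeq2 1.42.0 and limma 3.58.1 were alternatives. SEs are the log2 fold change divided by the root of F. CPM in the text is scaled to the total of the tested genes unless library totals are named. Measures per cell were compared by exact two-sided permutation tests over replicates. Binomial intervals are exact (95%) and, like the limits for counts of 0 (3 counts), cover counting error only. Sums reached 30929 to 180185 transcripts, which limits precision most in M13. The scripts were tested on simulated data. Doublets were not removed, since each well was a single sorted cell.

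Named genes were the 10 of smallest p in each direction, up to 4 tested members with the highest mean CPM of each list, the genes the study discusses and up to 5 genes called in each within-set fit and in the interaction. Others (Tnf, Il10, Ccl3, Ccl4, Ccr2, Lyz2, Ciita, Sall1, P2ry12, Ly6c2, Ccr7, Cd209a, Mrc1, Ms4a7, Flt3, Zbtb46, Siglech, Gm21738, Gm10717) were named after their values were seen. The members and lists were chosen with earlier results of these data known. Promoters were taken from RefSeq (GRCm38.p6) and gene positions from GENCODE M21. Control cells and other plates were not analysed here.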

Additional observations from a re-analysis of the deposited data

Results flagged for a closer look

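The 4 genes whose change differed between the plate sets by the interaction test were Gm42418, Apoe, H2-Aa and Capn3 (edgeR, adjusted p = 5.83e-07, 0.00331, 0.0406 and 0.0406). In the interaction fit, the log2 fold change of 1-week minus 3d HFD on plates 4 and 5 minus that on plate 13 was -2.54 for Gm42418, -2.86 for Apoe, -7.60 for H2-Aa and 8.52 for Capn3. The value of Capn3 depends on the prior count, since M13 had none of its transcripts. The plate 13 side of each rests on M13 with 12 cells, its spread taken from the other groups, and with M14 added 1 gene, Gm42418, was called. Without the cells of at least 50 class II UMIs, Apoe and H2-Aa were not called, and the 3 genes called were Gm42418, Ddx3x and Capn3.

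Among 39 groups of 4 replicates, 6 held a value far from the other 3 by Dixon's test, which flags about 1 in 20 groups by chance. In 3d HFD these were the class II levels of M24, at 3114 CPM for H2-Aa, 4339 for Cd74, 2510 for H2-Ab1 and 2127 for H2-Eb1, which belong to the same cells and are 1 observation. Ndufb5 of 3d HFD was lowest in M18 at 63.7 CPM. In 1-week HFD, M14 included, M23 had the lowest share of transcripts from genes left out of the filtered table, at 22.4%.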

How the results depend on the processing

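Between the lengths, 0 genes were called under all alternatives of the test, scaling, low-count filter, block, cell minimum and cells left out (15 to 388 genes at an unadjusted p under 0.05), and with M14 added. Plate 13 alone, with M13 as the only 1-week sum, gave 11 calls and 7 without its cell of at least 50 class II UMIs, and leaving out each replicate gave 0 to 3 (3 without M23, 2 without M24). Without M23 and without the class II cells 4 genes were called, with Gm42418 added to the 3. The interaction gave 3 calls (Gm42418, Ddx3x and Capn3, so neither Apoe nor H2-Aa) without the cells of at least 50 class II UMIs, 1 in DESeq2, 1 with M14 and 1 to 8 when a replicate was left out, while M13 could not be left out. Capn3, at 0.11 over all sums, had the other sign on plate 13, where 1-week HFD was M13 alone (fitted -7.01, and -7.00 without the cell of many class II UMIs). Of 3315 values of 126 named genes under the alternatives, 456 had the other sign and 17 passed the threshold with the same sign, and of 469 values of the 20 genes of smallest p 1 had the other sign.

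The difference in transcripts per cell was -92.7 with a minimum of 1000 transcripts, -23.6 with M14 and -94.1 to 878 with a replicate left out. The distance between cells was -5.3e-05 with thinning to 1500 UMIs, -6.1e-05 over 500 variable genes, -0.00576 without class II cells, -0.00819 with M14 and -0.0155 to 0.00483 with a replicate left out. The mitochondrial share as a median over cells differed by 0.424 points, and without thinning the differences were -52.6 genes per cell and 0.0138 in distance. Leaving out replicates gave -9.13 to 7.25 genes per cell, 0.0490 to 0.336 points of mitochondrial share and -1.15 to 5.83 points of genes left out of the filtered table. The cause of these moves was not tested. The alternatives with M14, without 50-UMI cells, without M23 and class II cells, without narrower markers and with class II cells thinned were chosen after seeing the data. The lengths were matched by plate set in the fits. No paired analysis was possible because no replicate identifier is shared between the lengths. M13, with the fewest transcripts, limited what could be tested on plate 13.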
